A study of Mus musculus with 12 samples.

Results

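The kidneys of mice on a high fat, high sucrose diet were compared with those of mice on a normal diet, over both surgeries at once, to find which genes were set by the diet whatever the surgery had been. All 12 kidney libraries of the series entered the comparison, 6 from HFD and 6 from ND mice. The mean of the HFD + sham and HFD + hIRI groups was set against the mean of the ND + sham and ND + hIRI groups, with each group given the same weight. Male C57BL6 mice, labelled wild type and 10 weeks old at the start, received either diet for 12 weeks. ND held 20% protein, 10% fat and 70% carbohydrate, and HFD held 12.6% protein, 29% fat and 46.2% carbohydrate with added sucrose. hIRI was 60 min of clamping of the vessels to part of the liver, the left lateral and right median lobes, sham was the operation with no clamping, and kidney RNA was taken after 6 h in all 4 groups of 3 mice. The kidney was never clamped, and each library was taken as 1 mouse. The diets differ in protein, fat and carbohydrate together, so no result belongs to one of these alone.

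The kidney proximal tubule reclaims amino acids, glucose, phosphate and small proteins from the filtrate, secretes organic anions such as drugs and uric acid, and runs on fatty acid oxidation. In male mice its RNA is also shaped by androgens, which set the levels of many transporters and of steroid, fatty acid and drug-conjugating enzymes. Diet is known to act on kidney fuel choice through the nuclear receptor PPAR alpha and through SREBP factors, and on protein synthesis through ribosome production.

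Read counts covered 14091 genes, at totals of 20874584 to 28970586 counts per ND library (median 25748551.5) and 22313300 to 29451344 per HFD library (median 22521592). Positions of genes are given on mm10, from the authors' table. Levels below are read counts scaled to a common library size (CPM) by TMM, given for replicates 1, 2 and 3 in that order, and differences are log2 fold changes of HFD over ND with their standard errors (SE). A gene passed at an adjusted p (Benjamini-Hochberg over all genes) under 0.05 in edgeR's quasi-likelihood test. The library numbers in the labels were split into a lower run of 4 libraries (2 ND and 2 HFD) and a higher run of 8. The labels do not say whether these runs of numbers were prepared or sequenced apart. HFD + hIRI replicates 1, 2 and 3 all lie in the higher run, so the split is partly tied to group. Kidney markers were high in every library, with Umod at 3654 to 5656 CPM and Slc34a1 at 2839 to 5109 CPM. Of markers of nearby tissues, Cyp11a1, Cyp11b1, Acta1, Ckm and Pnlip were not in the deposited table. The others were measured, with Ttr at 66.0 to 338 CPM, Alb at 8.52 to 46.7 CPM and Apoa2 at 4.08 to 9.51 CPM. Cela1 lay at 28.4 to 62.7 CPM, Adipoq at 0 to 22.5 CPM and Lep at 0 to 23.3 CPM. Plin1 lay at 0 to 12.0 CPM and Star at 0.852 to 2.79 CPM. The 27 tubular injury genes summed to 1570 CPM in ND + hIRI replicate 1, below all 6 sham kidneys at 1629 to 1989 CPM, while HFD + hIRI replicate 1 had the highest sum at 24742 CPM. Without both of these libraries 565 genes passed the diet main effect.

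With all 12 libraries 387 genes passed, of which 155 were higher on HFD (1.1% of all genes) and 232 were lower (1.65%). In 386 of the 387 the sham and the hIRI kidneys differed by diet in the same direction, against 60.5% of all genes, and the exception was Fgb. The 387 were picked by the mean of both differences, which favours such agreement, so the count is no separate evidence of it. In 318 of them the 3 HFD kidneys lay wholly above or wholly below the 3 ND kidneys in sham and again in hIRI, 123 above and 195 below. Such separation in both surgeries was found in 351 of all genes above (2.49%) and 512 below (3.63%). The 6 HFD kidneys lay wholly to one side of the 6 ND kidneys for 69 of the rises and 79 of the falls, and for 114 and 136 of all genes. A fold of at least 2 was reached by 27 rises and 63 falls. Phyhipl was among the last genes to pass, at an adjusted p of 0.0499, and Ankrd13c and Apln were the next at 0.0505.

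The diet difference within sham kidneys and that within hIRI kidneys share no library. Within the fit of all 12 libraries, 2 genes passed in sham kidneys (0.0142%), both lower on HFD. An unadjusted p under 0.05 was reached there by 646 genes upward and 594 downward. In hIRI kidneys 190 genes passed in the same fit (1.35%), 75 higher and 115 lower. With 1 library left out the sham count ran from 0 to 10 (without HFD + hIRI replicate 1), and the hIRI count from 4 (without ND + hIRI replicate 2) to 2559 (without HFD + hIRI replicate 3). A fit of the 6 sham libraries alone passed 226 genes, with 1344 upward and 1366 downward at an unadjusted p under 0.05. DESeq2 passed 491 higher and 392 lower on these libraries. One of the 6 hIRI libraries alone passed 0, with 957 genes upward and 967 downward at an unadjusted p under 0.05. DESeq2 passed 108 higher and 148 lower there. The larger count was thus that of sham kidneys in the separate fits and that of hIRI kidneys in the shared fit. Of the 190 genes, 171 (90%) had the same sign in sham kidneys, as did 60.5% of all genes. An unadjusted p under 0.05 in sham kidneys in the same direction was found for 79 (41.6%). Of all genes 8.8% had such a p in sham in either direction. The shared estimate of the spread has a part in this overlap that was not tested. Among the 387 genes the difference was the larger in hIRI kidneys for 315 and in sham kidneys for 72. The median size of the difference was 0.48 in sham and 0.78 in hIRI kidneys on the log2 scale. The differences of both surgeries lay within 1.5 times of each other in 161 genes. Over all genes an unadjusted p under 0.05 in hIRI kidneys was reached by 2105 upward and 1723 downward in the quasi-likelihood test, also more than in sham. How many of all genes had the larger difference in hIRI kidneys was not counted, so the larger hIRI difference is not shown to be particular to the 387. The test of sham against hIRI (diet by surgery) passed for 2 genes (0.0142%), Fgb and Vdr.

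**Figure D1:**
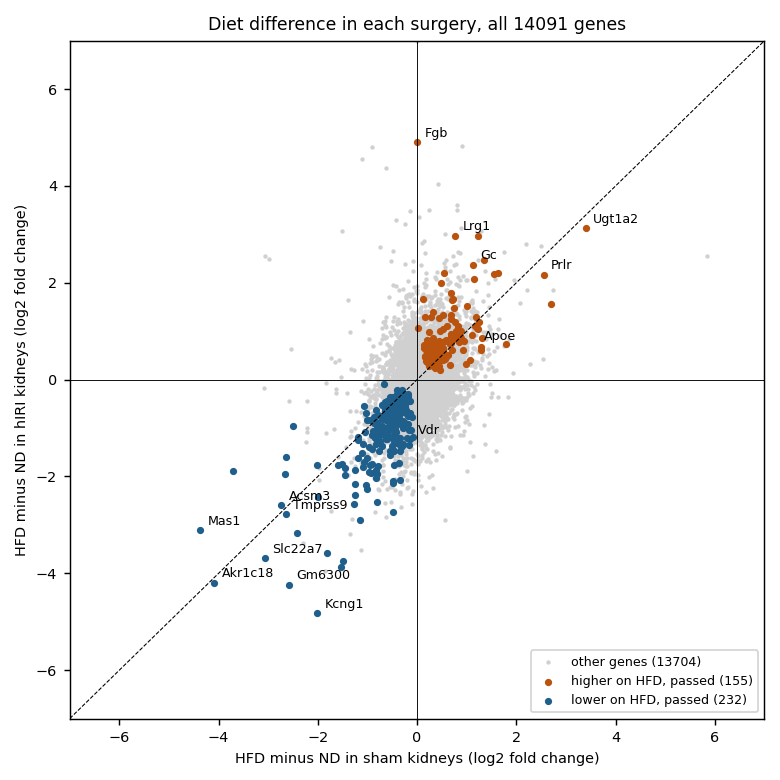
Each point is 1 of 14091 genes, with the HFD minus ND log2 fold change of sham kidneys on the x axis and of hIRI kidneys on the y axis, and the dashed line marks equal values. The 155 rises (orange) and 232 falls (blue) lie mostly toward the upper right and lower left corners, and Fgb sits at 0.00 on the x axis and 4.90 on the y axis.

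The count of genes that passed rested on single libraries. Leaving out HFD + sham replicate 1, 2 or 3 left 38, 46 or 49 genes, and leaving out ND + sham replicate 1, 2 or 3 left 135, 59 or 166. It was 118 genes without ND + hIRI replicate 2 and 1469 without HFD + hIRI replicate 3. Leaving out ND + hIRI replicate 1 or 3 or HFD + hIRI replicate 1 or 2 gave 120 rises and 181 falls, 155 and 261, 180 and 300, or 138 and 140. In the 8 libraries of the higher run, where HFD + sham is 1 mouse, 0 genes passed, with an unadjusted p under 0.05 for 587 genes upward and 492 downward, while DESeq2 passed 77 higher and 76 lower on the same libraries. Of 102 genes named here that passed, 21 passed in all 12 fits with 1 library left out. A further 10 passed in 9 to 11 of these fits, 25 in 6 to 8 and 46 in under 6. For many genes the number of these 12 fits in which the gene passed is given below as "passed in 5 of 12".

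Gsto1, Apoe and Cp were the rises with the smallest p. Apoe, the apolipoprotein through which cells take up lipoprotein remnants (chromosome 7 from 19696244 to 19699188, minus strand), measured 192, 190.1 and 213 CPM on ND and 377, 393 and 560.2 CPM on HFD in sham kidneys, and 211, 146 and 189.9 CPM on ND and 401, 365 and 416.2 CPM on HFD in hIRI kidneys. All 6 HFD kidneys lay above all 6 ND kidneys. Its log2 fold change was 1.14 (SE 0.12, adjusted p = 0.00234), at 1.16 in sham and 1.11 in hIRI kidneys, and it passed in 12 of 12. Cp, which encodes ceruloplasmin, a copper protein that oxidises iron for export (chromosome 3 from 19957054 to 20009750, plus strand), measured 82.7, 76.0 and 109.8 CPM on ND and 161, 165 and 171 CPM on HFD in sham kidneys, and 125, 146 and 157 CPM on ND and 279.7, 229 and 263 CPM on HFD in hIRI kidneys. Again no HFD kidney overlapped an ND kidney, although hIRI kidneys were higher than sham kidneys on each diet. The fold change of Cp was 0.87 (SE 0.10, adjusted p = 0.00403), at 0.89 in sham and 0.85 in hIRI kidneys, in 12 of 12.

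Gsto1, a glutathione transferase of the omega class (chromosome 19 from 47854989 to 47864788, plus strand), measured 28.7, 27.8 and 38.8 CPM on ND and 57.6, 57.3 and 53.1 CPM on HFD in sham kidneys, and 35.6, 33.7 and 34.3 CPM on ND and 65.9, 67.7 and 62.0 CPM on HFD in hIRI kidneys. Its 6 HFD values were all above its ND values and the groups were tight, with a log2 fold change of 0.87 (SE 0.08, adjusted p = 0.0022), which passed in 12 of 12. Alas2, the red-cell form of the first enzyme of heme synthesis (chromosome X from 150547417 to 150570622, plus strand), measured 10.9, 14.9 and 10.4 CPM on ND and 23.9, 31.7 and 28.8 CPM on HFD in sham kidneys, and 9.20, 13.4 and 8.21 CPM on ND and 23.1, 19.9 and 20.4 CPM on HFD in hIRI kidneys. Every HFD kidney was higher than every ND kidney, with a log2 fold change of 1.13 (SE 0.14, adjusted p = 0.00625) (12 of 12). In bulk kidney RNA fewer cells of a type and less RNA per cell cannot be told apart, for these and all genes below.

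Cebpb and Pdk4 were higher on HFD in each surgery, and on each diet their hIRI kidneys stood above their sham kidneys. Cebpb, a transcription factor of acute phase, adipose and stress genes (chromosome 2 from 167688915 to 167690432, plus strand), measured 19.8, 20.1 and 21.2 CPM on ND and 54.5, 38.5 and 51.2 CPM on HFD in sham kidneys, and 45.3, 64.8 and 65.1 CPM on ND and 201, 105 and 91.9 CPM on HFD in hIRI kidneys. The HFD + sham kidneys overlapped the ND + hIRI kidneys, while within each surgery the diets did not overlap, and the log2 fold change was 1.21 (SE 0.19, adjusted p = 0.0168), at 1.24 in sham and 1.18 in hIRI kidneys, in 9 of 12. Pdk4, the kinase that shuts off pyruvate dehydrogenase when fat is burned (chromosome 6 from 5483351 to 5496278, minus strand), measured 81.9, 65.9 and 25.9 CPM on ND and 138, 138 and 119 CPM on HFD in sham kidneys, and 184, 392 and 266 CPM on ND and 888, 698 and 489 CPM on HFD in hIRI kidneys. Within each surgery all HFD kidneys were above all ND kidneys, with a log2 fold change of 1.24 (SE 0.27, adjusted p = 0.042), but it passed in only 2 of 12.

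Of the 15 rises named by size Ugt1a2, Prlr, Npy6r and Gc had the largest log2 fold changes over both surgeries. Ugt1a2, an enzyme that joins glucuronic acid to bilirubin, hormones or drugs (chromosome 1 from 88200611 to 88220002, plus strand), measured 1.78, 0.527 and 1.47 CPM on ND and 10.5, 16.8 and 12.9 CPM on HFD in sham kidneys, and 1.74, 0.0936 and 1.06 CPM on ND and 4.39, 2.64 and 18.9 CPM on HFD in hIRI kidneys. The HFD kidneys were all higher but spread widely after hIRI, and the log2 fold change of 3.27 (SE 0.59, adjusted p = 0.024) passed in 6 of 12. Ugt1a1 and Ugt1a10 share their last exons with Ugt1a2, so that reads there could count for any of them. Ugt1a1 rose by 2.13 (in 4 of 12) and Ugt1a10 by 2.10 (in 2 of 12).

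Prlr, the prolactin receptor (chromosome 15 from 10177238 to 10349180, plus strand), measured 31.7, 7.72 and 18.9 CPM on ND and 103, 115 and 124 CPM on HFD in sham kidneys, and 34.4, 3.79 and 8.84 CPM on ND and 44.1, 78.7 and 89.8 CPM on HFD in hIRI kidneys. Every HFD kidney exceeded every ND kidney, and the lowest ND values were those of replicate 2 in each surgery. The log2 fold change of 2.36 (SE 0.49, adjusted p = 0.0345) passed in 3 of 12. Gc, the vitamin D carrier of plasma (chromosome 5 from 89417511 to 89457898, minus strand), measured 40.4, 13.7 and 62.2 CPM on ND and 97.7, 89.9 and 68.0 CPM on HFD in sham kidneys, and 57.9, 17.2 and 30.6 CPM on ND and 166, 131 and 253 CPM on HFD in hIRI kidneys. The HFD range again lay above the ND range, and ND replicate 2 was the lowest of its group in both surgeries. Gc had a log2 fold change of 1.76 (SE 0.37, adjusted p = 0.0368), in 5 of 12.

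The other rises named by size were Npy6r, a neuropeptide Y receptor, Fam25c, Gm3219, Tgfbi, a secreted matrix protein, Sema6b, a semaphorin, and Ucp2, a mitochondrial carrier. Their log2 fold changes ran from 0.89 (Sema6b) to 1.91 (Npy6r), with Fam25c at 1.27 and Ucp2 at 0.97. Fam25c passed in 12 of 12 and the others in 3 to 5 of 12.

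**Figure D2:**
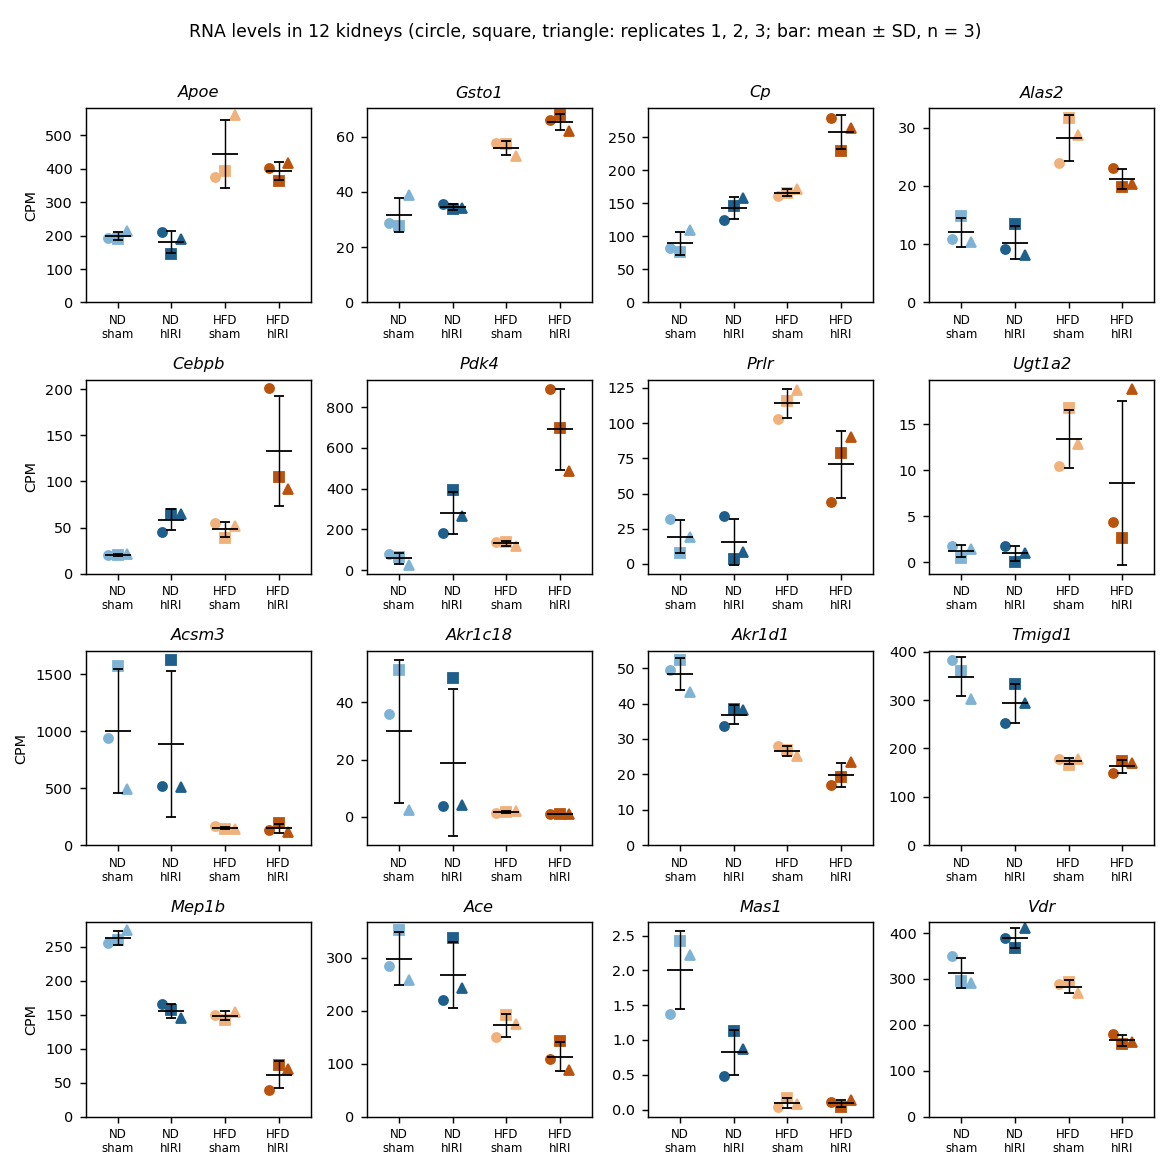
RNA levels in CPM of 16 genes in the 4 groups, where each point is 1 kidney, marked by its replicate number, and the bars are the mean ± SD of 3 kidneys. Apoe runs from 146 to 213 CPM on ND and from 365 to 560 CPM on HFD, while Vdr overlaps between the diets after sham and runs from 157 to 179 CPM on HFD and from 368 to 410 CPM on ND after hIRI.

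The 15 falls named by size, taken where mean log2 CPM reached 1 or more, included Akr1c18, Acsm3, Akr1c14 and Hsd3b2, enzymes of steroids or fatty acids. Akr1c18, which inactivates progesterone as a 20-alpha-hydroxysteroid dehydrogenase (chromosome 13 from 4132627 to 4150631, minus strand), measured 35.8, 51.3 and 2.53 CPM on ND and 1.41, 1.89 and 2.002 CPM on HFD in sham kidneys, and 3.92, 48.5 and 4.23 CPM on ND and 0.981, 1.03 and 1.06 CPM on HFD in hIRI kidneys. The HFD kidneys were all below the ND kidneys and close together, while ND kidneys spread from 2.53 to 51.3 CPM with replicate 2 highest in each surgery. The log2 fold change was -4.14 (SE 0.84, adjusted p = 0.032) and passed in 4 of 12. Acsm3, a synthetase that activates medium-chain fatty acids (chromosome 7 from 119760923 to 119784896, plus strand), measured 939, 1574 and 497 CPM on ND and 165, 146 and 141 CPM on HFD in sham kidneys, and 518, 1629 and 515 CPM on ND and 133, 192 and 115 CPM on HFD in hIRI kidneys. The lowest ND kidney stood at more than the highest HFD kidney, and the highest ND kidneys were again replicate 2 of each surgery. Acsm3 had a log2 fold change of -2.67 (SE 0.36, adjusted p = 0.00914), at -2.74 in sham and -2.60 in hIRI kidneys, and passed in 12 of 12.

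Of 4 measured Acsm genes 3 fell, against 1.65% of all genes. Beside Acsm3 these were Acsm2 (-0.45, in 4 of 12) and Acsm5 (-0.80, in 2 of 12), and Acsm1 had -0.78 without passing. Akr1d1, the steroid 5-beta-reductase (chromosome 6 from 37530173 to 37568815, plus strand), measured 49.5, 52.4 and 43.4 CPM on ND and 28.0, 26.8 and 25.2 CPM on HFD in sham kidneys, and 33.8, 38.6 and 38.1 CPM on ND and 16.9, 19.3 and 23.4 CPM on HFD in hIRI kidneys. The diets did not overlap and each diet was lower after hIRI than after sham. Its log2 fold change was -0.87 (SE 0.09, adjusted p = 0.0022), nearly alike at -0.86 in sham and -0.89 in hIRI kidneys, in 12 of 12. Akr1c14, a 3-alpha-hydroxysteroid dehydrogenase, and Hsd3b2, of the 3-beta-hydroxysteroid dehydrogenase family, had log2 fold changes of -1.63 and -1.31 and passed in 5 and 4 of 12. Both were lower in every HFD + hIRI kidney than in any other kidney. Further genes of androgen and glucocorticoid metabolism, picked after their values were seen, were the 5-alpha-reductases Srd5a1 (-0.81) and Srd5a2 (-1.05) and the 11-beta-dehydrogenase Hsd11b1 (-0.58). These 3 were not named by the rule, and whether each passed is not stated here. Other genes of this metabolism were not counted.

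The remaining falls named by size were Gm6300, Clec2h, Itih2, Sec14l3, Igf2bp1, Chrdl1, Ell3, Selenbp2, Klhl14, Snx31 and Arhgef39. They included Itih2, a heavy chain of the inter-alpha-trypsin inhibitor, Igf2bp1, an RNA-binding protein, and Chrdl1, a BMP antagonist. Gm6300 had -3.40, with ND replicate 2 highest in each surgery, and its reads could be shared with related predicted genes. The other 10 ran from -1.92 (Igf2bp1) to -1.21 (Klhl14), and only Igf2bp1 passed in 12 of 12. Of the 30 genes named by size 13 had no overlap between the 6 HFD and the 6 ND kidneys. The naming rule had already asked for separation within each surgery. Over all 14091 genes, 114 were higher and 136 lower on HFD without such overlap. An adjusted p for the diet by surgery difference ran from 0.486 (Igf2bp1) to 0.983 (Akr1c18) over the 30 genes, which does not show that the surgeries were alike.

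**Figure D3:**
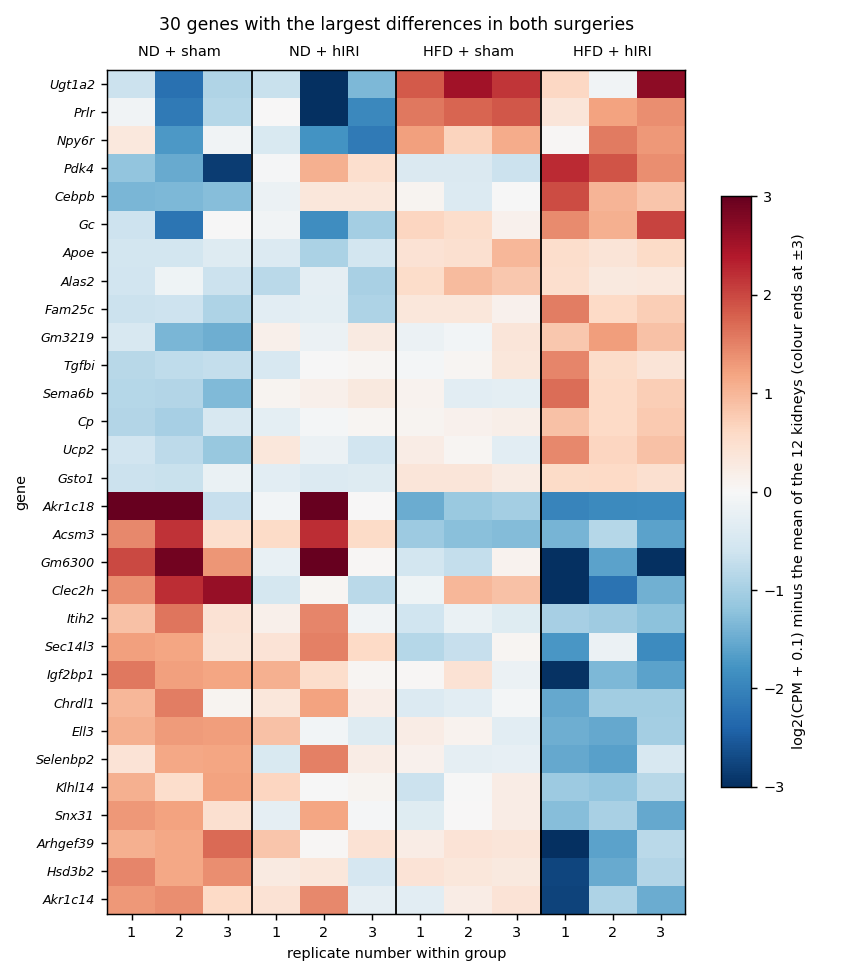
Colour gives log2(CPM + 0.1) minus the mean of the 12 kidneys for the 30 genes named by size, with genes in rows and kidneys in columns by group and replicate number. Within each surgery the HFD kidneys lie further toward red than the ND kidneys for the 15 rises and further toward blue for the 15 falls, and ND replicate 2 of each surgery is the most extreme ND kidney for Akr1c18, Acsm3, Prlr and Gc.

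The falls among the 10 genes with the smallest p were Tmigd1, Tmprss9, Vdr, Akr1d1, Mas1, Hyi and Kcng1. Tmigd1, an adhesion protein of epithelia (chromosome 11 from 76904545 to 76916586, plus strand), measured 383, 359.6 and 303 CPM on ND and 177, 166 and 179 CPM on HFD in sham kidneys, and 254, 333 and 294 CPM on ND and 148, 173 and 169 CPM on HFD in hIRI kidneys. The HFD kidneys lay between 148 and 179 CPM and the ND kidneys between 254 and 383 CPM, with no overlap. Its log2 fold change was -0.92 (SE 0.09, adjusted p = 0.0022), and it passed in 12 of 12. Mas1, the receptor for angiotensin 1-7 (chromosome 17 from 12841005 to 12868143, minus strand), measured 1.37, 2.42 and 2.22 CPM on ND and 0.0328, 0.171 and 0.0852 CPM on HFD in sham kidneys, and 0.476, 1.12 and 0.864 CPM on ND and 0.103, 0.0383 and 0.138 CPM on HFD in hIRI kidneys. All HFD kidneys were near 0, and the 6 libraries held 7 reads in HFD + sham and 6 in HFD + hIRI against 174 and 54 in the ND groups. The fitted log2 fold change of -3.74 (SE 0.40, adjusted p = 0.00254) passed in 12 of 12 and rests on these few reads.

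Tmprss9, a membrane-bound serine protease (chromosome 10 from 80879816 to 80899494, plus strand), measured 2.57, 3.16 and 2.29 CPM on ND and 0.525, 0.429 and 0.298 CPM on HFD in sham kidneys, and 2.97, 4.21 and 3.89 CPM on ND and 0.671, 0.689 and 0.231 CPM on HFD in hIRI kidneys. The HFD values were at most 0.689 CPM and the ND values at least 2.29 CPM, a log2 fold change of -2.71 (SE 0.26, adjusted p = 0.0022) with -2.65 in sham and -2.78 in hIRI kidneys. Kcng1, a modifier subunit of voltage-gated potassium channels (chromosome 2 from 168261698 to 168269331, minus strand), measured 2.23, 3.76 and 1.81 CPM on ND and 0.558, 0.772 and 0.596 CPM on HFD in sham kidneys, and 2.695, 1.64 and 1.06 CPM on ND and 0, 0.115 and 0.0461 CPM on HFD in hIRI kidneys. It was lower on HFD in every kidney, with -3.42 (SE 0.40, adjusted p = 0.00403), and HFD + hIRI held 4 reads in all. Hyi, a hydroxypyruvate isomerase, fell by 0.66 without overlap between the diets. Tmprss9, Kcng1 and Hyi each passed in 12 of 12.

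Of 34 measured proximal tubule genes 5 fell and 0 rose, against 1.65% and 1.1% of all genes, with a median of -0.12 for the list and 0.01 for all genes. The 5 were Mep1a and Mep1b, subunits of the brush border protease meprin, Ace, Acmsd, an enzyme of tryptophan breakdown, and the water channel Aqp1. Mep1b (chromosome 18 from 21072344 to 21100199, plus strand) measured 255, 259.8 and 274 CPM on ND and 149.5, 142 and 154 CPM on HFD in sham kidneys, and 165, 157 and 145 CPM on ND and 39.6, 75.2 and 70.5 CPM on HFD in hIRI kidneys. The HFD + sham kidneys lay at the level of the ND + hIRI kidneys and the HFD + hIRI kidneys were lowest. Its log2 fold change was -1.08 (SE 0.13, adjusted p = 0.00603), in 12 of 12. Ace, which makes angiotensin II (chromosome 11 from 105967945 to 105989964, plus strand), measured 285, 354 and 258 CPM on ND and 150.0, 192 and 175 CPM on HFD in sham kidneys, and 221, 338 and 243 CPM on ND and 109, 143 and 88.2 CPM on HFD in hIRI kidneys. Every HFD kidney was below every ND kidney, at -1.02 (SE 0.15, adjusted p = 0.0116), in 12 of 12. Mep1a, Acmsd and Aqp1 had log2 fold changes of -0.46, -0.86 and -0.47. The endocytic receptor gene Lrp2 (-0.11) and the phosphate transporter gene Slc34a1 (-0.11) did not pass. Of 10 genes of the renin-angiotensin system Ace and Mas1 fell and 0 rose.

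Of 23 genes known to depend on androgens or sex in mouse kidney 9 fell and 1 rose, against 1.65% and 1.1% of all genes. The median was -0.62. The list mixes both directions of sex difference, and Prlr, which rose, and Slc7a12 are higher in female kidneys. The falls were Acsm3, Slc22a7, Slco1a1, Cyp4a12a, Slc22a28, Ugt2b38, Hsd17b11, Slc22a30 and Gusb. Slco1a1, an organic anion carrier (chromosome 6 from 141907281 to 141946962, minus strand), measured 624, 663 and 398 CPM on ND and 348, 343 and 319 CPM on HFD in sham kidneys, and 549.9, 744 and 384 CPM on ND and 190.1, 321 and 182 CPM on HFD in hIRI kidneys. Its ND values were all above its HFD values, with a log2 fold change of -1.01 (SE 0.20, adjusted p = 0.03) that passed in 6 of 12. Hsd17b11, which oxidises androgens, had a log2 fold change of -0.68 (SE 0.09, adjusted p = 0.00973), in 12 of 12.

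Slc22a7, an organic anion transporter (chromosome 17 from 46432185 to 46438477, minus strand), measured 117, 243 and 15.8 CPM on ND and 8.73, 14.6 and 21.4 CPM on HFD in sham kidneys, and 68.4, 265 and 54.3 CPM on ND and 15.5, 11.9 and 2.81 CPM on HFD in hIRI kidneys. ND + sham replicate 3 lay within the HFD range, and ND replicate 2 was the highest of all kidneys in each surgery. The log2 fold change was -3.38 (SE 0.68, adjusted p = 0.032), in 5 of 12. Slc7a12, an amino acid transporter, ran from 2.29 to 67.9 CPM on ND and from 85.0 to 127 CPM on HFD, and this difference did not pass (adjusted p = 0.106). The androgen-dependent Kap (-0.48) and Odc1 (-0.69) did not pass. Slc22a28 and Slc22a30, and Cyp4a12a with its close copy, may share reads.

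In 3 of the 10 androgen-dependent genes that passed, Acsm3, Slco1a1 and Slc22a7, the highest ND values were those of replicate 2 of ND + sham and of ND + hIRI, and in the other 7 at least 1 of the 2 highest ND kidneys was another mouse. Outside that list Akr1c18 and Gm6300 also had their highest ND values in both replicate 2 kidneys, and Prlr and Gc had their lowest there. The ND values of Prlr spanned 9.07-fold and its HFD values 2.81-fold, and those of Acsm3 spanned 3.28-fold and 1.67-fold. Leaving out 1 library ended the calls of 77 or 78 of the 102 named genes for the HFD + sham kidneys, 52, 74 and 41 for ND + sham replicates 1, 2 and 3, 20, 56 and 19 for ND + hIRI replicates 1, 2 and 3, and 0 to 27 for the HFD + hIRI kidneys. The part of these mice in the diet difference was not tested beyond those fits.

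**Figure D4:**
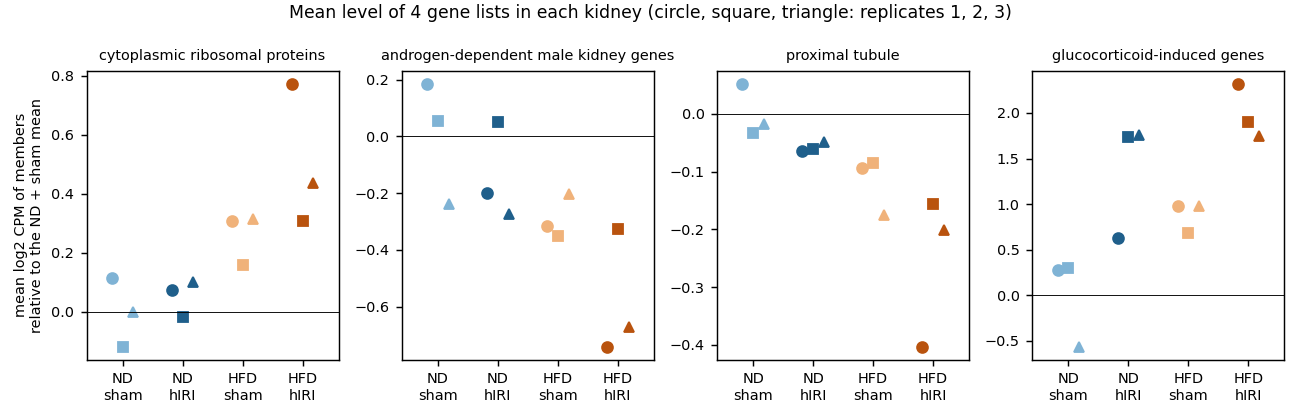
Mean log2 CPM of the members of 4 gene lists in each kidney, relative to the mean of the ND + sham kidneys, with 1 point per kidney marked by replicate number. Ribosomal protein genes lie between -0.12 and 0.12 on ND and between 0.16 and 0.77 on HFD, and androgen-dependent genes between -0.27 and 0.19 on ND and between -0.74 and -0.20 on HFD.

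Genes for the cytoplasmic ribosome formed the largest group of rises among the lists. Of 55 listed and measured ribosomal protein genes 24 rose and 0 fell, against 1.1% and 1.65% of all genes. All 55 had a positive log2 fold change, from 0.03 to 0.64, and the median was 0.37. In 28 of the 55 the HFD kidneys lay above the ND kidneys in both surgeries, and the median was 0.24 in sham and 0.47 in hIRI kidneys. Of 94 symbols that start with Rpl, Rps or Rplp, matched by letters alone after the values were seen, 33 rose (35.1%) and 0 fell. The median of these 94 was 0.35. Rps29, a small subunit protein (chromosome 12 from 69157722 to 69159186, minus strand), measured 224, 206 and 215 CPM on ND and 311, 278 and 294 CPM on HFD in sham kidneys, and 223, 233 and 231 CPM on ND and 438, 299 and 349.9 CPM on HFD in hIRI kidneys. The diets did not overlap, HFD + hIRI replicate 1 was the highest kidney, and the log2 fold change was 0.56 (SE 0.09, adjusted p = 0.0152) in 11 of 12. Rpl39, of the large subunit, measured 61.8, 58.1 and 65.5 CPM on ND and 89.6, 79.4 and 82.1 CPM on HFD in sham kidneys, and 67.3, 65.3 and 64.9 CPM on ND and 142, 90.5 and 105 CPM on HFD in hIRI kidneys. Its HFD values were all above its ND values, with 0.61, and Rps12 and Rps21 rose by 0.56 and 0.53.

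Ribosomal protein messages are short, and short genes rose more often here. When genes were put into 4 classes of equal size by summed exon length, 84 rose and 52 fell in the shortest class, and 30 rose and 60 fell in the longest. Among 5653 other genes within the same span of exon length, 327 to 2497 bases, 1.31% rose, against 43.6% of the 55 listed ribosomal protein genes. With a trend on exon length removed, which was tried only once the data had been seen, 13 of the 55 still passed and the median was 0.26. With library totals alone in place of TMM 10 passed and the median was 0.30, while the median of all genes moved to -0.05. Processed copies of these genes in the genome may share their reads. Mitochondrial ribosomal protein symbols, a family picked after the values were seen, had 1 rise among 77 genes.

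Of 56 oxidative phosphorylation genes 4 rose and 0 fell, against 1.1% and 1.65% of all genes, with a median of 0.16. They were Ndufc1 (0.38), Ndufa2 (0.32) and Ndufs6 (0.29) of complex I and Uqcrh (0.32) of complex III. With the exon length trend removed these log2 fold changes were 0.16 for Ndufc1, 0.17 for Ndufa2, 0.13 for Ndufs6 and 0.16 for Uqcrh, and 0 of the 56 genes passed, with 20 upward and 0 downward at an unadjusted p under 0.05. DESeq2, without that removal, passed 14 higher and 0 lower.

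Lipid genes that passed went in both directions, where 1.1% of all genes rose and 1.65% fell. Of 30 genes of fatty acid and triglyceride synthesis 4 rose and 1 fell, with a median of -0.05. Acly, which makes cytosolic acetyl-CoA from citrate (chromosome 11 from 100476352 to 100528000, minus strand), measured 236, 209 and 181 CPM on ND and 289, 344 and 266 CPM on HFD in sham kidneys, and 334, 219 and 316 CPM on ND and 694, 804 and 688 CPM on HFD in hIRI kidneys. It was higher on HFD within each surgery, with HFD + hIRI kidneys above all others, and had 0.93 (SE 0.12, adjusted p = 0.00625) at 0.52 in sham and 1.33 in hIRI kidneys in 12 of 12. Acsl4, which loads arachidonic acid onto coenzyme A (chromosome X from 142317993 to 142390535, minus strand), measured 76.4, 75.3 and 82.4 CPM on ND and 104, 84.1 and 105 CPM on HFD in sham kidneys, and 109, 153 and 173 CPM on ND and 569, 342 and 233 CPM on HFD in hIRI kidneys. The sham values of the diets lay close together without overlap and the hIRI values far apart, with 0.86 (SE 0.19, adjusted p = 0.0432) at 0.33 in sham and 1.40 in hIRI kidneys, and it passed in 3 of 12. Agpat2 and Elovl5 rose by 0.53 and 0.28 (each in 3 of 12), and the desaturase-like Fads3 fell by 0.54 (in 5 of 12).

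Of 46 PPAR alpha targets and fatty acid oxidation genes Pdk4 rose and 3 fell, against 1.1% and 1.65% of all genes. The falls were the ketone body enzyme Bdh1 (-0.81, in 6 of 12), Cyp4a12a (-0.86, in 5 of 12) and the glycerol channel Aqp7 (-1.04, in 2 of 12). The median of the list was 0.16. In lipid droplet and lipid transport Apoe and Apob (0.61) were the 2 rises among 35 genes. Of 36 peroxisome genes 2 fell, Acox2 of bile acid side chain oxidation (-0.99) and Abcd4 (-0.78). In cholesterol synthesis and its SREBP2 targets only Mvk, mevalonate kinase, passed, with -0.44, and 21 of 26 had a negative log2 fold change with a median of -0.26.

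Nitrogen genes that passed were also split. Of 41 amino acid catabolism and urea genes 4 rose and 5 fell, against 1.1% and 1.65% of all genes. The rises included Glud1, which releases ammonia from glutamate, Arg2, an arginase, and Gldc of glycine cleavage. Glud1 (chromosome 14 from 34310727 to 34345033, plus strand) measured 834, 618 and 597 CPM on ND and 977, 1172 and 1094 CPM on HFD in sham kidneys, and 1093, 967 and 1357 CPM on ND and 2015, 2065 and 1609.6 CPM on HFD in hIRI kidneys. HFD kidneys were higher in each surgery, with 0.70 (SE 0.12, adjusted p = 0.0189) in 8 of 12. Arg2 and Gldc rose by 1.23 and 0.98, each in 5 of 12. Slc38a3, which carries glutamine into the tubule cell (chromosome 9 from 107651155 to 107668968, minus strand), measured 76.5, 69.3 and 46.5 CPM on ND and 107, 120.0 and 86.7 CPM on HFD in sham kidneys, and 160.1, 97.1 and 95.6 CPM on ND and 463, 431 and 214 CPM on HFD in hIRI kidneys. It was above ND in every HFD kidney of the same surgery, with 1.18 (SE 0.22, adjusted p = 0.0249) in 6 of 12. The falls were Cbs (-0.62) of homocysteine removal, the aminoacylases Acy1 (-0.70) and Acy3 (-0.65), Bcat2 (-0.48) of branched-chain amino acids and Afmid (-0.46) of tryptophan. Cbs passed in 9 of 12, Acy1 and Bcat2 in 8 of 12 and Afmid in 3 of 12. Slc6a19, the main neutral amino acid transporter of the brush border (chromosome 13 from 73681157 to 73700695, minus strand), measured 342, 447 and 434 CPM on ND and 240.4, 291 and 215 CPM on HFD in sham kidneys, and 297, 341 and 341 CPM on ND and 230.2, 167 and 182 CPM on HFD in hIRI kidneys. No HFD kidney reached an ND kidney, and the log2 fold change of -0.73 (SE 0.11, adjusted p = 0.0133) passed in 11 of 12.

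Transport and conjugation of organic ions held both falls and rises, where 1.65% of all genes fell and 1.1% rose. Of 31 organic ion transporter and efflux genes 4 fell, all named above, and Abcc3, an efflux pump for glucuronides, rose. Abcc3 (chromosome 11 from 94343295 to 94392976, minus strand) measured 4.21, 4.11 and 4.75 CPM on ND and 6.46, 8.87 and 6.99 CPM on HFD in sham kidneys, and 3.37, 5.75 and 5.19 CPM on ND and 11.2, 10.0 and 11.7 CPM on HFD in hIRI kidneys. Its HFD values were all higher, with 0.99 (SE 0.14, adjusted p = 0.0124) in 12 of 12. Of 28 conjugation enzyme genes the 3 Ugt1a genes rose and Ugt2b38, Acsm2, Acsm3 and Acsm5 fell. In that list 14 genes lay above 0 and 14 below, with a median of 0.002. Among all 309 solute carrier symbols, counted after the values were seen, 3 rose and 15 fell. Of 36 NRF2 target and glutathione genes 3 rose and 0 fell. They were Gsta2 (0.86, in 7 of 12), Gsr (0.44, in 2 of 12) and Mgst1 (0.89, in 3 of 12), and Gsta2 has near-identical copies.

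**Figure D5:**
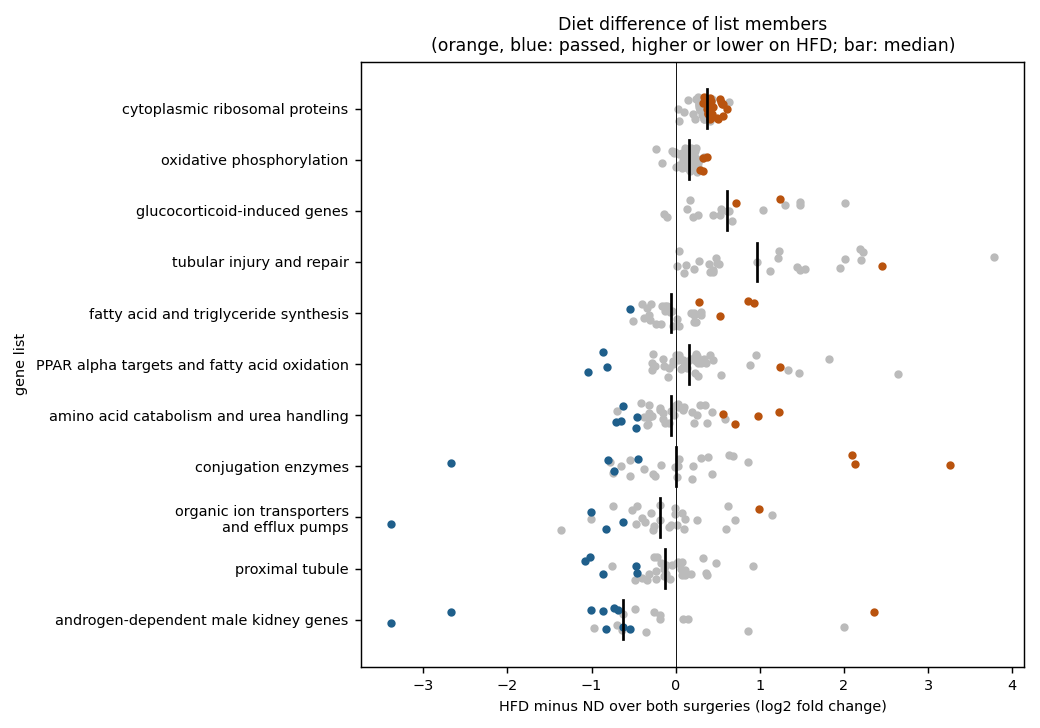
HFD minus ND log2 fold change over both surgeries of each member of 11 gene lists, where orange and blue points passed and the black bar is the median of the list. All 55 listed ribosomal protein genes lie above 0 with a median of 0.37, and the androgen-dependent genes have a median of -0.62 with 9 falls.

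The glucocorticoid, injury, acute phase and metal lists held 1 to 4 calls each. Of 19 glucocorticoid-induced genes Pdk4 and Errfi1 (0.72), a brake on the EGF receptor, rose and 17 lay above 0, with a median log2 fold change of 0.61. The median was 0.82 in sham and 0.32 in hIRI kidneys. Fkbp5 (0.53) and Tsc22d3 (0.27), standard readouts of the hormone, did not pass. Of 27 tubular injury genes all lay above 0 over both surgeries, with a median of 0.14 in sham and 1.63 in hIRI kidneys, and only Fgb passed. Havcr1 had 1.44 and Lcn2 2.01, and neither passed. In acute phase and complement genes Lrg1 (1.87), Fgb and Cp rose and C4a (-2.12), whose reads could be shared with its copy, fell among 38 genes. In iron, zinc and copper handling Cp and the transferrin receptor gene Tfrc (1.24) were the 2 rises of 22.

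Few calls stood in further lists, where 1.1% of all genes rose and 1.65% fell. Cebpb rose among 29 integrated stress response genes. Among 27 cell cycle genes Mcm3 rose (0.45, in 1 of 12) and Cenpe fell (-1.22, in 5 of 12). Wdr19 fell among 40 cilium genes (-0.75, in 2 of 12). Gusb (in 7 of 12) and the sialidase gene Neu1 (-0.69, in 12 of 12) fell among 36 lysosome genes. Of the cilium genes 35 of 40 had a negative log2 fold change, with a median of -0.22. Lists with 0 calls in edgeR's quasi-likelihood test covered fructose and glucose metabolism, the clock, cytochrome P450 targets, the distal nephron, insulin and FOXO targets, leukocytes, antigen presentation, interferon-stimulated genes, matrix, and podocytes and endothelium. Their 286 genes together held 43 upward and 30 downward with an unadjusted p under 0.05, and DESeq2 passed 17 higher and 8 lower.

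For other tissues, 13 hepatocyte genes summed to 231 to 601 CPM on ND and 235 to 3034 CPM on HFD, with Alb at 8.52 to 46.7 CPM over all kidneys. The 3 HFD + hIRI kidneys had the highest sums, and Fgg, a fibrinogen chain that injured tubules also make, reached 2747 CPM there. Serpina1c was the only member of this hepatocyte list that passed, lower on HFD with a log2 fold change of -1.70. Its reads could be shared with its copies. Of acute phase and plasma protein genes outside this list, Gc, Fgb, Cp and Lrg1 passed higher on HFD, and Itih2 and C4a passed lower. The 24 leukocyte genes summed to 184 to 752 CPM on ND and 183 to 537 CPM on HFD, with overlap. The 11 adipocyte genes summed to 101 to 422.5 CPM on ND and 132 to 209 CPM on HFD. Only 3 adrenal genes were measured, at 3.38 to 17.3 CPM summed on ND and 5.06 to 70.2 CPM on HFD, while Cyp11a1 and Cyp11b1 were not in the table. The part of such tissue in the diet difference was not tested.

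A diet main effect need not be equal in both surgeries, and the diet by surgery test passed for Vdr and Fgb. Vdr, the vitamin D receptor (chromosome 15 from 97854427 to 97908296, minus strand), measured 349.9, 295 and 292 CPM on ND and 288, 294 and 269 CPM on HFD in sham kidneys, and 389, 368 and 410.4 CPM on ND and 179, 157 and 162 CPM on HFD in hIRI kidneys. The sham kidneys of the diets overlapped, while HFD + hIRI kidneys lay far below ND + hIRI kidneys. Its log2 fold changes were -0.14 in sham and -1.23 in hIRI kidneys, and their difference of -1.09 (SE 0.14, adjusted p = 0.0461) passed edgeR's quasi-likelihood test. Fgb, the beta chain of fibrinogen, which injured tubules also make (chromosome 3 from 83042305 to 83049790, minus strand), measured 3.46, 2.32 and 2.73 CPM on ND and 2.99, 2.44 and 3.07 CPM on HFD in sham kidneys, and 6.30, 9.68 and 13.2 CPM on ND and 470.3, 266 and 132 CPM on HFD in hIRI kidneys. Only the HFD + hIRI kidneys were high, with log2 fold changes of 0.00 in sham and 4.90 in hIRI kidneys and a difference of 4.90 (SE 0.61, adjusted p = 0.0461). Both passed the main effect, at -0.68 (SE 0.07, adjusted p = 0.0022) and 2.45 (SE 0.30, adjusted p = 0.00625), so for them the main effect is not a statement on sham kidneys. With 1 library left out the test of the difference passed for both genes without HFD + hIRI replicate 1, for 1 gene without HFD + hIRI replicate 3, and for 0 without any of the other 10 libraries.

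Other genes that passed with the smallest p for the diet by surgery difference were Fh1, Elovl2, Mgst1 and Acly, higher, and Hdac5, Trim7, Hunk and Myom3, lower. Their log2 fold changes in sham kidneys ran from -0.48 (Myom3) to 0.52 (Acly) and those in hIRI kidneys from -2.74 (Myom3) to 1.66 (Mgst1). The diet by surgery difference did not pass for any of them, each at an adjusted p of 0.486.

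Promoter windows of RefSeq, from 250 bases before to 50 after a gene's start on GRCm38.p6, were found for 23 of the 30 genes named by size, 13 rises and 10 falls. They were searched on both strands for the E-box CACGTG, the D-box TTATGTAA, the sterol response element TCACNCCAC, the direct repeat AGGTCAAAG, the antioxidant element TGACNNNGC, the xenobiotic element TTGCGTG and the C/EBP-ATF element TTGCATCA. The D-box, which clock output factors such as Dbp, Tef, Hlf and Nfil3 bind, was in 3 of 10 falls (Akr1c18, Acsm3 and Sec14l3) and in 1 of 13 rises, where 1 of the 3 RefSeq windows of Prlr held it and the other 2 held none of the motifs searched, and in 1.11% of 27025 genes. The 4 windows shown were picked, among those of the genes named by size, because they hold the D-box. It stands in capitals, read on either strand. Windows of the other genes named by size, some with other searched motifs, are not shown. For Prlr the start of the window shown lies inside the interval that the deposited table gives for the gene. The window shown for Prlr is chr15:10293401-10293700 on the plus strand, with the motif starting 238 bases before the RefSeq start. The window of Akr1c18 is chr13:4150597-4150896 on the minus strand, with the motif starting 192 bases before the gene start. The window of Acsm3 is chr7:119760673-119760972 on the plus strand, with the motif starting 63 bases before the gene start. The window of Sec14l3 is chr11:4064603-4064902 on the plus strand, with the motif starting 56 bases before the gene start.
Prlr: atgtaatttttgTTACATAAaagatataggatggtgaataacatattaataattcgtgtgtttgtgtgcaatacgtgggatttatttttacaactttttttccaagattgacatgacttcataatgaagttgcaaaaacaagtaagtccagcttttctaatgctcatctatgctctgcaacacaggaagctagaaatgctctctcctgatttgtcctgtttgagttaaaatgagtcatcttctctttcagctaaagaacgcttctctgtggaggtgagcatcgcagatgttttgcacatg
Akr1c18: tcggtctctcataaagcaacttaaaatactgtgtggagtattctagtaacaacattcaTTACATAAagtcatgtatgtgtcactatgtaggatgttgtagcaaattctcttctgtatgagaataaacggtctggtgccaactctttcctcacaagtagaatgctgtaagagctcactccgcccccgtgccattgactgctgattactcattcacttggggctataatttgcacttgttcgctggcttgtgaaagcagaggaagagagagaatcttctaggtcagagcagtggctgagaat
Acsm3: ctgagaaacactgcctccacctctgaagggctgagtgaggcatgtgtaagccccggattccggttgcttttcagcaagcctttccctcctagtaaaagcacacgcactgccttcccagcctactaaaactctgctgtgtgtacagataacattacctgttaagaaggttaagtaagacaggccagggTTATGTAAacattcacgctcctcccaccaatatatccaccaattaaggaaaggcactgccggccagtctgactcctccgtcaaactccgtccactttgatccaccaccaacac
Sec14l3: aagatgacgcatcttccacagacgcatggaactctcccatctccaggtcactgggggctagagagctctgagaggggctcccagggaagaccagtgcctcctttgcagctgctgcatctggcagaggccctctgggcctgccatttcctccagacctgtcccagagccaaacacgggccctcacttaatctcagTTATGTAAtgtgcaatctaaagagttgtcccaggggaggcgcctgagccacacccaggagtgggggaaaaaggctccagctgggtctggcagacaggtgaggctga

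No other searched motif overlapped the D-box in these windows. The E-box was in 0 rises and 1 fall (8.09% of all genes), the antioxidant element in 2 rises and 1 fall (14%), the sterol element in 1 rise, Ucp2 (1.44%), and the direct repeat (0.488%), the xenobiotic element (1.35%) and the C/EBP-ATF element (1.03%) in 0 of either. A match is a description of the letters and not a site. The D-box factors did not pass by diet, with log2 fold changes of -0.84 for Dbp, -0.31 for Tef, -0.29 for Hlf and 1.10 for Nfil3, whose RNA was measured at 1 time after surgery only.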

How the data were processed

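The deposited kidney table came from 3 mice in each of 4 groups. The submitters' processing notes name mm10, edgeR 3.42.4, featureCounts, Subread 2.0.3, STAR 2.7.10a and FastQC 0.11.5. The authors deposited raw read counts per gene, with annotation, strand setting and filter not given in the sources used here. Their log2 CPM values, fold changes, p-values and FDR for group comparisons were not used.

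Counts were scaled by TMM and fitted in edgeR 4.0.16 (R 4.3.3), as a robust quasi-likelihood model with a mean for each group, after filterByExpr, which removed 0 genes. The diet main effect was the mean of the HFD groups minus the mean of the ND groups, adjusted by Benjamini-Hochberg over 14091 genes, and SE is the size of the log2 fold change over the square root of F. At totals of 20874584 to 29451344 counts the counting error matters most for low genes. The p-values measure the spread between libraries, each taken as 1 mouse.

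Named genes were the 15 rises and 15 falls whose smaller within-surgery difference was largest, among those that passed, had diets separated in both surgeries and had a mean log2 CPM of at least 1. To these were added the 10 smallest p, up to 4 members per direction of each list (2 where none passed), the 3 highest members of other-tissue lists, the 5 per direction with the smallest p for the diet by surgery difference, and listed genes that the study assayed in kidney. The members and lists were chosen with earlier results of these data known. An exact permutation of diet within surgery gave each of the 30 genes named by size the smallest p it allows, 0.005 (0.005 adjusted over the 30), which their separation fixes. Alternatives used other scalings, filters, tests (DESeq2 1.42.0, limma 3.58.1), covariates and libraries. Promoters are RefSeq windows on GRCm38.p6.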

Additional observations from a re-analysis of the deposited data

Results flagged for a closer look

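Vdr was singled out because its diet difference passed the test of a difference between surgeries. The log2 fold change of HFD over ND was -0.14 in sham and -1.23 in hIRI kidneys, a difference of -1.09 with an adjusted p of 0.0461 in edgeR's quasi-likelihood test, and 3 of 3 HFD + hIRI kidneys lay below 3 of 3 ND + hIRI kidneys. Fgb was singled out for the same reason, with 0.00 in sham and 4.90 in hIRI kidneys, a difference of 4.90 with an adjusted p of 0.0461, and 3 of 3 HFD + hIRI kidneys lay above 3 of 3 ND + hIRI kidneys.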

How the results depend on the processing

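The count of 387 genes for the diet main effect was 394 with DESeq2 size factors, 331 with upper quartile scaling, 374 with library totals alone (95 higher and 279 lower, against 155 and 232), 387 with no filter, 358 with at least 10 counts in every library, 373 by limma voom, 371 with the library number run as a covariate, 276 with additive diet and surgery terms, 565 without both hIRI libraries numbered 1 and 364 with the exon length trend removed. It was 1047 by the likelihood ratio test, 1447 by DESeq2, 1440 by voom with sample quality weights, 0 in the higher run of library numbers, 23 at an adjusted p under 0.01, 90 at a fold of at least 2, and 38 to 1469 with 1 library left out. The sham count of 2 was 0 with at least 10 counts, by limma voom, with the replicate block and with the run as a covariate, 45 by the likelihood ratio test, 132 by DESeq2, 306 with quality weights, 226 in the 6 sham libraries alone and 0 to 10 with 1 library left out. The hIRI count of 190 was 119 with upper quartile scaling, 1102 by the likelihood ratio test, 1778 by DESeq2, 733 with quality weights, 91 with the run as a covariate, 0 in the 6 hIRI libraries alone and 4 to 2559 with 1 library left out. The diet by surgery count of 2 was 8 by the likelihood ratio test, 37 by DESeq2, 4 with quality weights, 0 by limma voom, with the replicate block and with the run as a covariate, and 0 to 2 with 1 library left out. The 863 genes separated in both surgeries were 976 to 1363 with 1 library left out, where fewer kidneys have to be separated. The cause of the other shifts was not tested. The replicate numbers were not taken to pair the samples, with correlations of -0.41 to 0.202 over 18 pairs with the same number. They were 0.162 to 0.191 between ND + sham and ND + hIRI, 0.082 to 0.144 between the diets in sham and -0.41 to -0.092 between the diets in hIRI kidneys. The replicate block gave 195 higher and 211 lower main effect genes, 307 of them among the 387, and 11 of 102 named calls did not pass in it (Npy6r, Selenbp2, Aqp7, Acsl4, Elovl5, Gldc, Acsm5, Errfi1, Lrg1, Mcm3 and Elovl2). In the diet main effect, no gene named by the rule changed direction under any of these alternatives that held both surgeries. The fits of the 6 sham or the 6 hIRI libraries alone have no main effect and were left out of that check. The genes of other tissues, given as levels only (except Serpina1c), were left out of it too, as were genes picked after their values were seen. The genes named by size were picked for diets separated in both surgeries, which favours an unchanged direction. Genes with few reads, such as Mas1 and Kcng1, are limited by depth.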
